A study of Mus musculus with 8 samples.

Results

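The clustered protocadherins of the adult mouse brain were followed through 23 probe sets, out of the 23410 of the array that carried a gene symbol. They were chosen by name: every symbol of the probe set had to start with Pcdha, Pcdhb or Pcdhg, the alpha, beta and gamma clusters. Of the 23, 22 were single beta genes, Pcdhb1 to Pcdhb22, and 1 (probe set 10455019) carried 14 alpha symbols, which are Pcdha1 to Pcdha12, Pcdhac1 and Pcdhac2. The annotation used gave 0 probe sets with only gamma symbols, so the gamma cluster was not analysed here.

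Clustered protocadherins are cadherin-like cell surface proteins, encoded by genes that lie in tandem and are expressed mainly in neurons. Each neuron uses a few of them, picked by promoter choice in which the DNA-binding protein CTCF, cohesin and promoter DNA methylation take part, and a neurite that meets the same combination on another neurite recognizes it as its own. The alpha and gamma genes join a first exon of their own to constant exons that the cluster shares, whereas each beta gene encodes its protein in 1 exon. A whole-brain value sums over all cells, so fewer cells that express a gene and less RNA in each of them cannot be told apart, and neither can a different choice of isoform from cell to cell.

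RNA came from whole brains of male C57BL/6J mice at postnatal day 70. Their mothers had been injected 2 times on each injection day, with ethanol in saline (2.5 g/kg an injection) or with saline alone. Injections fell on gestational days 8 and 11 (early exposure) or on gestational days 14 and 16 (late exposure), and ethanol was compared with saline within each timing. Each of the 4 groups had 2 Affymetrix Mouse Gene 1.0 ST arrays. The RNA on an array was a pool of 3 brains from different litters, so every SD below is over n = 2 arrays and describes pools, not single mice. The number of arrays limits the precision of every value.

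All values are log2 expression as deposited. Over probe sets with a symbol the array medians ran from 7.10 to 7.14 (early) and from 7.57 to 7.60 (late), and no level was set across timings. The labelled tissue was checked on marker genes, and 5 of 5 neuronal, 5 of 5 astrocyte and 4 of 4 measured oligodendrocyte markers lay above background at both timings. Background was taken as the 95th percentile of 1372 probe sets of olfactory and vomeronasal receptors, genes mostly silent in brain, which averaged 6.73 in the early and 7.75 in the late arrays. Over single arrays it ran from 6.65 to 6.81 early and from 7.47 to 8.02 late.

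Against this background, 15 of the 23 probe sets had a mean over the 4 arrays above it in the early arrays, beside 54.9% of all probe sets, and 11 in the late arrays, beside 47.9%. The 11 above it at both timings were Pcdhb3, Pcdhb4, Pcdhb6, Pcdhb8, Pcdhb9, Pcdhb15, Pcdhb16, Pcdhb17, Pcdhb18, Pcdhb19 and Pcdhb22. Pcdhb2, Pcdhb11, Pcdhb14 and Pcdhb20 were above background in the early arrays alone. The alpha probe set and Pcdhb1, Pcdhb5, Pcdhb7, Pcdhb10, Pcdhb12, Pcdhb13 and Pcdhb21 were above it at neither timing, so a difference in one of these 8 is a difference between signals that background can give. The calls depended on the array, more so late than early. Against the percentile of the single array, 16 and 14 of the 23 lay above in early ethanol, and 17 and 15 in early saline. In late ethanol 7 and 14 lay above, and in late saline 12 and 7. Pcdhb13, counted as above at neither timing, exceeded the percentile of early ethanol replicate 1 (6.74 against 6.67). Pcdhb22, counted as above, was under the percentile of late ethanol replicate 1 (7.71 against 8.02). Pcdhb20, not counted as above late, exceeded that of late ethanol replicate 2 (7.76 against 7.47).

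The signal of a probe set depends on its probes as well as on its transcript, so the levels do not rank the genes. Pcdhb15 was at 8.27 and 8.36 in early ethanol and at 8.32 and 8.42 in early saline. Pcdhb18 was at 8.04 and 7.82 against 7.94 and 7.90, and Pcdhb9 at 7.37 and 7.36 in ethanol against 7.34 and 7.39 in saline. Pcdhb1 was at 5.28 and 5.29 against 5.12 and 5.40, well under the background level. In each of these 4 genes the early ethanol and saline arrays overlapped. The beta genes are close copies of each other, and hybridization of one gene's transcript to another's probes was not tested.

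**Figure D1:**
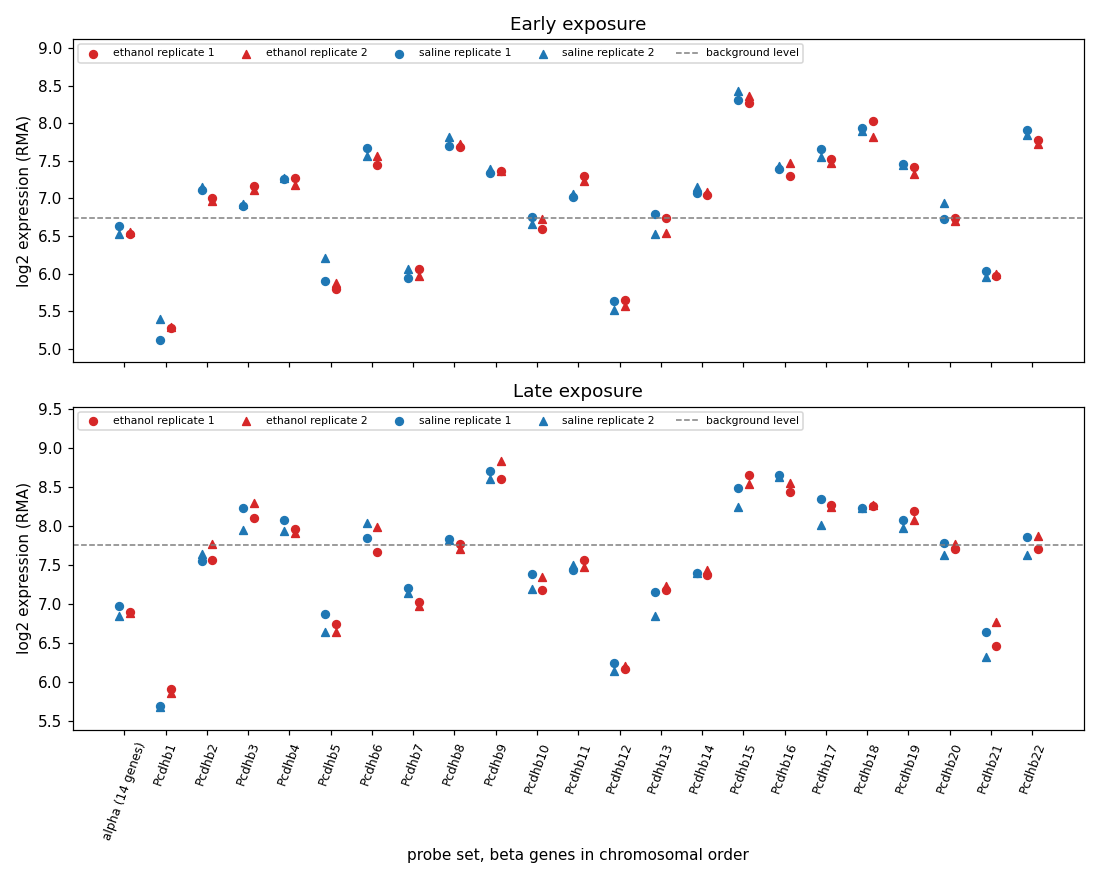
Log2 expression (vertical axis, RMA) of the 23 clustered protocadherin probe sets (horizontal axis, the alpha probe set first and the beta genes in chromosomal order) in the early and late arrays. Each point is 1 array, blue for saline and red for ethanol, with circles for replicate 1, triangles for replicate 2 and a dashed line at the background level of 6.73 or 7.75. The ethanol and saline points of a gene mostly lie close together, and those of Pcdhb1 lie far under the dashed line at both timings.

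The first comparison asked whether these genes differed in the adult brain after ethanol on gestational days 8 and 11. Pcdhb11 had the smallest p, with an ethanol level 1.17-fold that of saline, and Pcdhb3 had a difference of the same size. Most other beta genes differed by less. Ethanol arrays had the higher mean for 6 of the 22 beta genes, beside 40.2% of all probe sets, and the lower mean for 15, beside 59.7%, while the means of Pcdhb9 were equal. The median log2 difference of the beta genes was -0.04, and that of all probe sets -0.02. None of the 23 probe sets was called by limma at an adjusted p under 0.05, where 0% of all probe sets were called. At an unadjusted p under 0.05, where 1.71% of all were found, there was 1, Pcdhb11.

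Pcdhb11 (probe set 10455088) was at 7.30 and 7.23 in early ethanol and at 7.02 and 7.06 in early saline. Both ethanol arrays lay above both saline arrays, and all 4 above the background level. The means were 7.26 ± 0.05 (SD, n = 2) and 7.04 ± 0.03, a log2 difference of 0.22 (SE 0.08) with a limma unadjusted p = 0.023 and an adjusted p = 1. The 95% interval of the difference ran from 0.04 to 0.40, up to 1.32-fold. The unadjusted p was 0.12 without early ethanol replicate 1, where the difference was 0.19, and 0.083 without early saline replicate 1, where it was 0.20.

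Pcdhb3 (probe set 10455054) was at 7.16 and 7.11 in early ethanol and at 6.90 and 6.93 in early saline. The groups did not overlap. The log2 difference was 0.22 (SE 0.11), with a 95% interval of -0.03 to 0.48 and a limma unadjusted p = 0.080. With Pcdhb11 it made up the 2 beta genes whose ethanol arrays both lay above both saline arrays, a pattern that 7.5% of all probe sets shared.

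The lower side held 5 beta genes whose groups did not overlap, a pattern found in 18.9% of all probe sets. Pcdhb5 (probe set 10455065) was at 5.80 and 5.87 in early ethanol and at 5.90 and 6.20 in early saline. Saline replicate 2 stood apart from the other 3 arrays, and all 4 lay under the background level. Its log2 difference was -0.21 (SE 0.12, limma unadjusted p = 0.12), and it was -0.06 without early saline replicate 2 and -0.37 without early saline replicate 1. Pcdhb2 (probe set 10455050) was at 7.01 and 6.96 against 7.12 and 7.15, a log2 difference of -0.15 (SE 0.09) with a limma unadjusted p = 0.14.

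The other 3 were Pcdhb22, Pcdhb17 and Pcdhb19, which lie in the second part of the beta cluster. Pcdhb22 was at 7.78 and 7.72 in early ethanol and 7.91 and 7.85 in early saline, a difference of -0.13 (SE 0.10). Pcdhb17 was at 7.53 and 7.47 against 7.65 and 7.55, a difference of -0.10 (SE 0.11). Pcdhb19 was at 7.42 and 7.33 against 7.46 and 7.45, a difference of -0.08 (SE 0.08). Each difference was within 1.5 times its SE, and the limma unadjusted p-values were 0.24, 0.39 and 0.36.

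The remaining 15 beta genes overlapped between the early groups. Among them Pcdhb20 differed by -0.12, which became -0.23 without early saline replicate 1 and -0.004 without early saline replicate 2. Pcdhb6 differed by -0.11, with values between -0.17 and -0.05 when 1 array was left out, the latter without ethanol replicate 1, and Pcdhb8 and Pcdhb15 each by -0.05. Pcdhb12 (0.03), Pcdhb1 (0.03) and Pcdhb7 (0.02) were the largest on the other side, all 3 under background. Pcdhb9 had the same mean in both groups to 2 decimals, 7.36, with a 95% interval of -0.22 to 0.22.

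The alpha probe set was at 6.52 and 6.56 in early ethanol and at 6.63 and 6.52 in early saline. The groups overlapped at a level just under background. Its log2 difference was -0.03 (SE 0.08), with a 95% interval of -0.23 to 0.16 and a limma unadjusted p = 0.69. Since 14 genes share this probe set, among them Pcdhac2, the isoform known for its part in serotonergic axon tiling, a change in 1 isoform offset by another would not appear in it.

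The arrays did bound the size of the early differences. The 95% interval lay wholly within 1.5-fold in either direction for 23 of 23 probe sets, beside 95.7% of all. It lay within 1.2-fold, the study's threshold of size, for 10, beside 33.4% of all. These 10 were the alpha probe set, Pcdhb1, Pcdhb4, Pcdhb7, Pcdhb8, Pcdhb9, Pcdhb12, Pcdhb14, Pcdhb16 and Pcdhb18, of which the alpha probe set, Pcdhb1, Pcdhb7 and Pcdhb12 were under background. For the other 13 the interval reached past 1.2-fold, at most to 1.41-fold, for Pcdhb5. The study called a gene at a 1.2-fold difference with an unadjusted p under 0.05. None of the 23 passed both, which 0.278% of all probe sets did as higher and 0.645% as lower, and none differed by over 1.2-fold at any p, as 2.79% of all did.

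**Figure D2:**
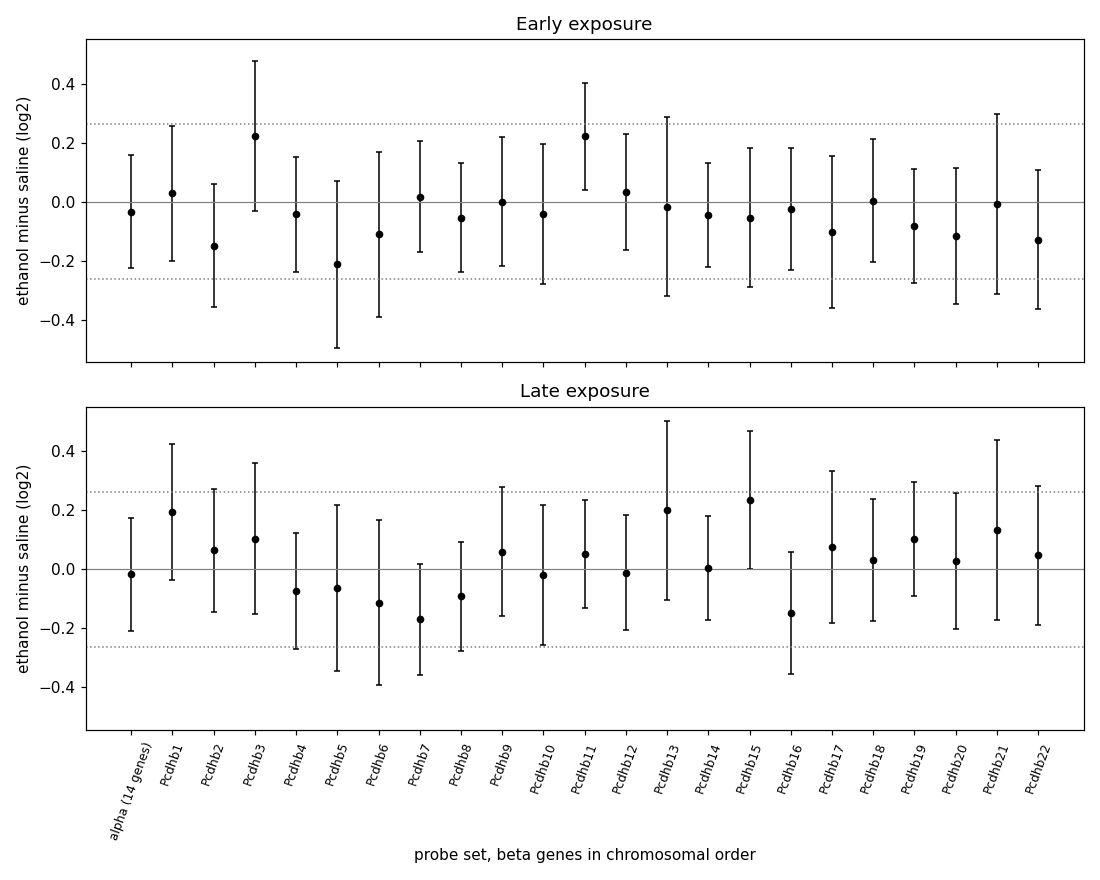
Log2 difference of ethanol minus saline (vertical axis) for each clustered protocadherin probe set (horizontal axis, beta genes in chromosomal order) at early and late exposure, with bars for the 95% interval of limma and dotted lines at 1.2-fold. In the early panel the interval of Pcdhb11 alone lies off 0, from 0.04 to 0.40, and in the late panel that of Pcdhb15 ends at 0.

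The second comparison asked the same of ethanol on gestational days 14 and 16. Pcdhb15, one of the beta genes above background in all 8 arrays, had the largest difference, 1.18-fold higher in ethanol. Pcdhb7 had the largest difference on the lower side. The ethanol mean was the higher for 14 of the 22 beta genes, beside 47.3% of all probe sets, and the lower for 8, beside 52.7%. The median log2 difference of the beta genes was 0.04, and that of all probe sets -0.01. Without late saline replicate 2 the median was -0.03, and without late ethanol replicate 2 it was -0.02, so the direction rested on these 2 arrays. By limma 0 of the 23 were called at an adjusted p under 0.05, as were 0% of all, and 0 at an unadjusted p under 0.05, beside 2.49% of all.

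Pcdhb15 (probe set 10455104) was at 8.66 and 8.55 in late ethanol and at 8.49 and 8.25 in late saline. The groups did not overlap, and saline replicate 2 was the lowest. The means were 8.60 ± 0.08 (SD, n = 2) and 8.37 ± 0.17, a log2 difference of 0.23 (SE 0.10) with a limma unadjusted p = 0.0503 and an adjusted p = 1. The 95% interval reached up to 0.47, or 1.38-fold. The difference was 0.12 without late saline replicate 2 and 0.35 without late saline replicate 1. With quantile normalization over all 8 arrays, and with cyclic loess, Pcdhb15 passed the study's thresholds, with a difference of 0.27 and an adjusted p of 1 in each.

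Pcdhb7 (probe set 10455071) was at 7.03 and 6.98 in late ethanol and at 7.20 and 7.15 in late saline. The arrays of a group lay close together and the groups did not overlap, but all 4 were under background. Its log2 difference was -0.17 (SE 0.08), with a limma unadjusted p = 0.071, and the p was 0.013 with cyclic loess, 0.018 with quantile normalization and 0.045 with median centring, with no adjusted p under 0.05.

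Pcdhb1 (probe set 10455048) was at 5.91 and 5.85 in late ethanol and at 5.69 in both late saline arrays. The groups did not overlap, again far under background. Its log2 difference was 0.19 (SE 0.10), with a limma unadjusted p = 0.088. Pcdhb16 (probe set 10455108), which was above background, was at 8.43 and 8.56 in ethanol and at 8.66 and 8.63 in saline. Its log2 difference was -0.15 (SE 0.09), with a limma unadjusted p = 0.14. Without late ethanol replicate 1 the difference was -0.09.

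In all, the groups did not overlap for 4 beta genes that were higher in late ethanol, beside 12.7% of all probe sets, and for 3 that were lower, beside 15.7%. Besides those above, Pcdhb13 was at 7.17 and 7.23 in ethanol and 7.15 and 6.85 in saline. Its difference was 0.20 (SE 0.13), and 0.05 without late saline replicate 2. Pcdhb18 was at 8.26 and 8.27 against 8.23 and 8.24, a difference of 0.03 (SE 0.09), far inside its error. Pcdhb8 was at 7.77 and 7.70 against 7.84 and 7.82, a difference of -0.09 (SE 0.08).

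The other 15 beta genes overlapped between the late groups. The largest differences among them were 0.13 for Pcdhb21, -0.11 for Pcdhb6, 0.10 for Pcdhb3 and 0.10 for Pcdhb19. Single arrays decided them. Without late saline replicate 2 the difference was -0.03 for Pcdhb21, -0.04 for Pcdhb3 and 0.05 for Pcdhb19, and without late ethanol replicate 1 it was 0.04 for Pcdhb6. Pcdhb11, the gene with the smallest p after early exposure, was at 7.57 and 7.47 in late ethanol and at 7.44 and 7.50 in late saline, where it lay under background, and its difference was 0.05 (SE 0.08). Pcdhb14 was the closest to 0, at 7.37 and 7.43 against 7.40 in both saline arrays.

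The alpha probe set was at 6.90 and 6.88 in late ethanol and at 6.97 and 6.84 in late saline. The saline arrays lay on either side of the ethanol arrays. Its log2 difference was -0.02 (SE 0.08), with a 95% interval of -0.21 to 0.18. The fit gave each probe set the same SE at both timings. The SD within groups of the beta array medians was 0.05 early and 0.10 late, so late intervals may be too narrow. Over all 23 probe sets the late interval lay within 1.5-fold for 23, beside 95.4% of all, and within 1.2-fold for 7, beside 29.8% of all. These 7 were the alpha probe set, Pcdhb10, Pcdhb11, Pcdhb12, Pcdhb14, Pcdhb18 and Pcdhb20, of which Pcdhb18 was above background. Of all 23, 11 were above background in the late arrays. None passed the study's thresholds, as 0.44% of all probe sets did as higher and 0.722% as lower, and none differed by over 1.2-fold at any p, beside 2.86% of all.

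The genes that separated the groups were then set side by side for both timings. The groups did not overlap for 7 beta genes after early exposure (26.4% of all probe sets), which were Pcdhb2, Pcdhb3, Pcdhb5, Pcdhb11, Pcdhb17, Pcdhb19 and Pcdhb22. They did not overlap for 7 after late exposure (28.4% of all), which were Pcdhb1, Pcdhb7, Pcdhb8, Pcdhb13, Pcdhb15, Pcdhb16 and Pcdhb18. No gene was in both sets, to which 6.91% of all probe sets belonged. The early and late differences had opposite signs for 11 of the 22 beta genes, beside 53.2% of all probe sets. The 2 comparisons share no arrays, and across the 22 beta genes their differences correlated at r = 0.18, beside -0.20 across all probe sets, a description over genes that lie on the same arrays and resemble each other in sequence.

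The difference between the early and late effects was tested for each probe set in the same fit. By limma 0 of 23 were called at an adjusted p under 0.05 (0% of all) and 0 at an unadjusted p under 0.05 (2.06% of all). The largest was that of Pcdhb15, whose early effect minus its late effect was -0.29 (SE 0.14), with a 95% interval of -0.62 to 0.04 and a limma unadjusted p = 0.080. At 1.22-fold it was the only one over 1.2-fold, a size that 9.14% of all probe sets passed. It was followed by Pcdhb13 (-0.22) and Pcdhb2 (-0.21). For Pcdhb11 it was 0.17 (SE 0.11), with an interval of -0.09 to 0.43, so the early and late values of this gene were not shown to differ. The mean of both effects was 0.14 (SE 0.06) for Pcdhb11, with a limma unadjusted p = 0.040 beside 1.56% of all probe sets at an unadjusted p under 0.05, and 0.16 (SE 0.08) for Pcdhb3. None was called there at an adjusted p under 0.05 (0% of all).

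**Figure D3:**
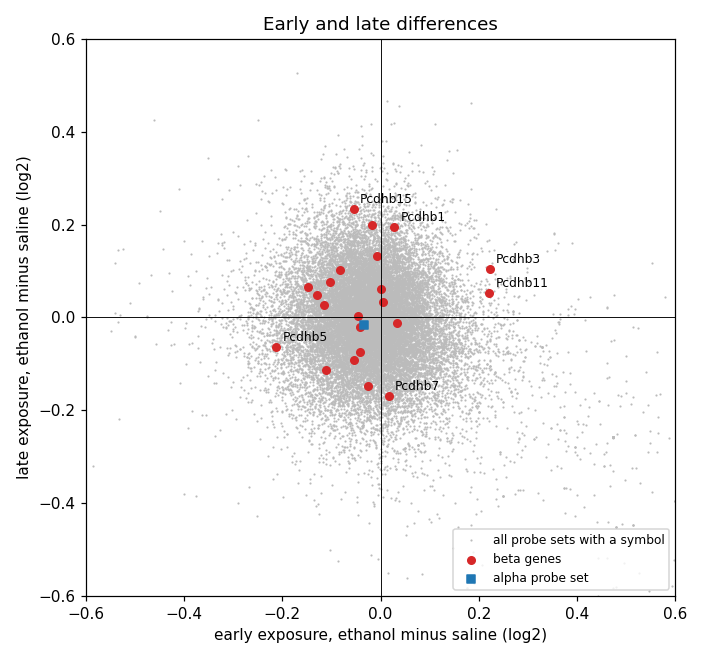
Late difference (vertical axis, ethanol minus saline, log2) against early difference (horizontal axis, same unit) for the 22 beta genes in red, the alpha probe set as a blue square and all probe sets with a symbol in grey, with 115 probe sets outside the plotted range of 0.6 in either direction left out. The beta genes lie inside the grey cloud, with Pcdhb11 and Pcdhb3 to the right at 0.22 and Pcdhb15 at the top at 0.23.

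Along the chromosome the differences did not run in one direction. The symbol numbers of the 22 beta genes follow their order along it in RefSeq, and of the 21 pairs of neighbours 10 had early differences of the same sign and 13 late ones, with the early difference of Pcdhb9, which was 0, counted as neither. Pcdhb15 (late 0.23) stands next to Pcdhb16 (late -0.15), and Pcdhb11 (early 0.22) between Pcdhb10 (-0.04) and Pcdhb12 (0.03). Runs of the same sign were also seen. Late differences were all below 0 from Pcdhb4 to Pcdhb8 and all above 0 from Pcdhb17 to Pcdhb22. Early ones were below 0 from Pcdhb13 to Pcdhb22, except that of Pcdhb18.

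The beta genes were also compared between single arrays. Late saline replicate 2 was the lowest of the 4 late arrays for 10 of the 22 beta genes, beside 34.7% of all probe sets, and the highest for 1. The median deviation of the beta genes from the mean of the 4 late arrays was -0.08 there and 0.06 in late saline replicate 1, so the 2 saline arrays lay on either side of the ethanol arrays (-0.02 and 0.04). In the early arrays the corresponding medians were -0.02 in each ethanol array, 0.00 in saline replicate 1 and 0.03 in saline replicate 2. Early saline replicate 2 was the highest array for 9 of the 22, beside 26% of all. The residual SD of the beta genes had a median of 0.10 on the log2 scale, as had that of all probe sets.

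**Figure D4:**
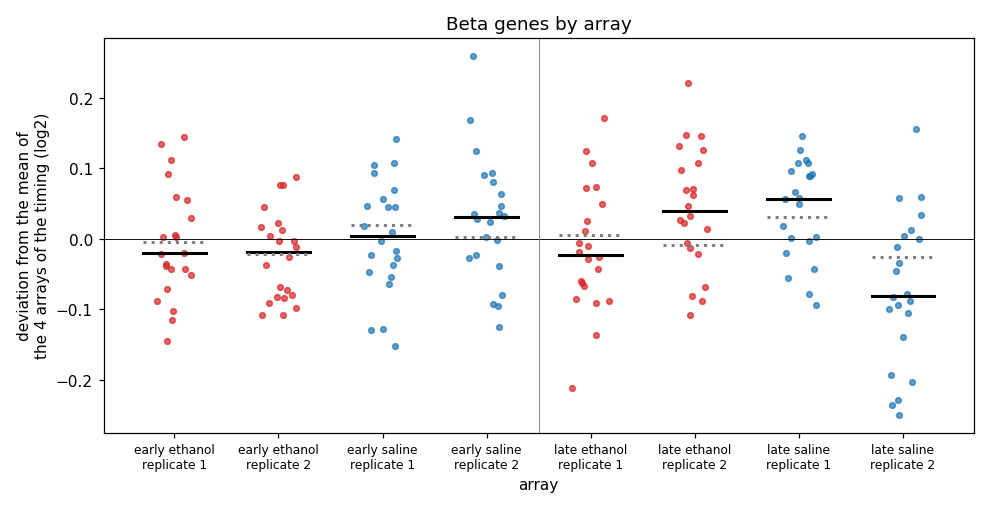
Deviation of each of the 22 beta genes from the mean of its timing's 4 arrays (vertical axis, log2) by array (horizontal axis), with ethanol in red, saline in blue, a black bar at the median of the beta genes and a dotted grey bar at that of all probe sets with a symbol. Late saline replicate 2 lies lowest, at -0.08, and late saline replicate 1 highest, at 0.06.

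The protocadherins outside the clusters, single genes with roles in cell adhesion and migration, were measured by 16 probe sets of 14 genes, of which 2 now carry the symbols Cdhr1 and Cdhr2. After early exposure 6 were higher and 10 lower, beside 40.2% and 59.7% of all probe sets, and 1 passed the study's thresholds, beside 0.923%. It was Cdhr1, known from projection neurons of the olfactory bulb and also among the bulb markers below. It was at 6.27 and 7.12 in early ethanol and at 7.47 and 7.57 in early saline, a difference of -0.83 (SE 0.23) in which ethanol replicate 1 lay far under the other 3 arrays. Pcdh8, under background, had a difference of 0.22 and Pcdh20 of -0.30, neither past the thresholds. After late exposure 0 passed, beside 1.16% of all, with 11 higher and 5 lower, beside 47.3% and 52.7% of all.

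Genes that act on protocadherin promoters were counted in the same way. Of 18 probe sets of 17 genes, 0 passed the study's thresholds after either exposure, beside 0.923% (early) and 1.16% (late) of all probe sets. At such shares a count of 0 in a list this short says little about its genes. Ctcf, which binds the protocadherin promoters and brings them to their enhancers, differed by -0.15 (SE 0.09) after early and by -0.04 (SE 0.09) after late exposure. Both early ethanol arrays of Ctcf lay under both early saline arrays, a pattern found in 18.9% of all probe sets. Wapl, Rad21, Smc3, Cdca7, Dnmt3b and a probe set of Smchd1 in the same list had it too. Dnmt3b, the methyltransferase that methylates these promoters in the embryo, was at background and differed by -0.08 and 0.16, and Dnmt3a by -0.07 and -0.02. Smchd1, a chromatin protein that represses the clusters, had 2 probe sets, at -0.10 and -0.003 after early and 0.07 and -0.12 after late exposure. The median difference of the list was -0.05 after early exposure, with 15 of 18 lower, beside 59.7% of all probe sets. It was -0.03 after late exposure, with 12 of 18 lower, beside 52.7% of all.

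Partners of the protocadherins in signalling and cleavage include the kinases Fyn, Ptk2b and Ret and the protease Adam10. They gave 0 of 21 probe sets past the study's thresholds after either exposure, beside 0.923% (early) and 1.16% (late) of all. Of the 21, 14 were lower each time, beside 59.7% (early) and 52.7% (late) of all probe sets. Prkca, a protein kinase C, differed by -0.21 (SE 0.09) after early exposure and by -0.06 after late exposure, and Ret by 0.17 and -0.25 (SE 0.11). The classical cadherins, the adhesion molecules from which the family takes its name, gave 0 of 17 after either exposure, beside the same shares. Of the 17, 13 were lower after early exposure, beside 59.7% of all probe sets, and 11 higher after late exposure, beside 47.3%.

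Markers of tissue at the edge of a brain dissection moved in the same arrays. The study's thresholds were passed by 0.278% of all probe sets as higher and 0.645% as lower after early exposure. The late shares were 0.44% and 0.722%. After early exposure 4 of 4 nasal gland markers were higher past these thresholds, 2 of the 4 being above background. Their summed level was 10.1 to 12.5 on the log2 scale in ethanol and 8.36 to 8.60 in saline. Early ethanol replicate 1 was the highest array for each, with Obp2a at 8.32 there and at 5.63 in ethanol replicate 2. All 5 olfactory bulb markers were lower after early exposure, 3 of them past the thresholds, and 4 of 5 were above background. Their summed level was 9.78 to 9.93 in early ethanol and 10.3 to 10.4 in early saline. After late exposure 3 bulb markers were lower, 1 of them (Eomes) past the thresholds, and 2 were higher. The summed level was then 10.2 to 10.4 in ethanol and 10.47 in both saline arrays. After late exposure all 5 cerebellar markers were lower, 2 past the thresholds, with a summed level of 13.2 to 13.5 in ethanol and 13.5 to 13.6 in saline. Of 6 markers of olfactory sensory neurons 2 were lower past the thresholds after early and 1 after late exposure. Of 5 neuronal markers 4 were higher in early and 1 in late ethanol, with 0 past the thresholds, and the summed level was 14.9 to 15.0 in early ethanol and 14.7 to 15.0 in early saline. All 4 oligodendrocyte markers were higher in early and lower in late ethanol, Mbp by 0.22 and Mobp by 0.23 after early exposure, and all 5 endothelial markers were lower in early ethanol, but 0 passed among those of astrocytes, oligodendrocytes, microglia, endothelium, pituitary and blood at both timings. All 4 pituitary markers were higher in ethanol at both timings. Gh was at 6.90 and 9.81 in early ethanol and at 7.48 and 8.83 in early saline (SE 0.83). With such a spread between arrays of a group, 0 past the thresholds does not show equal pituitary levels. Choroid plexus markers gave 0 after early exposure and 1, Otx2, after late exposure. The part of these tissues and cells in the values of Pcdhb11, Pcdhb3, Pcdhb15 and the other beta genes was not tested. Serotonergic markers, of interest for the alpha genes, had 1 of 4 past the thresholds after early exposure, Tph2 (0.33, under background), and 0 after late exposure. In early ethanol 3 of the 4 were higher and 1, Maob, was lower (-0.13). The summed levels were 10.1 to 10.2 in both early groups, but Maob had the highest signal of the 4 and weighs most in that sum.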

How the data were processed

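Every value is a log2 expression value that the authors deposited. Per the methods and labels, arrays were scanned with Affymetrix Command Console, and Partek Genomics Suite (6.6 in the submitters' processing notes, another version in the methods) did quantile normalization, GC adjustment and RMA summary. This is stated for the early arrays and was taken to hold for the late ones. No genome build or annotation release was named in the sources used here, so no coordinates are printed, and RefSeq (GRCm38.p6) served for gene order only. Of 35556 probe sets, 12146 carried no symbol and were not tested.

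A mean for each of the 4 groups was fitted over 8 arrays in limma 3.58.1 (R 4.3.3) with moderated variances. Benjamini-Hochberg adjustment ran across the 23410 tested probe sets, and 95% intervals use the moderated SE. The fit was tested on simulated data. Each pool held non-littermates, and p-values measure the spread between pools.

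The members, lists and tests were chosen with earlier results of these data known. Members were named when among the 4 of smallest unadjusted p in a timing, when past the study's thresholds, by signal, or as C-type isoforms, and others after their values were seen. Alternatives were the unmoderated test (the analysis of variance of the methods), the 4 arrays of a timing alone, a replicate block, 3 other scalings, filters on low or several-symbol probe sets, every probe set, a trend of variance with intensity, weighted arrays and the omission of each array. Figures were drawn with matplotlib 3.10.9.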

Additional observations from a re-analysis of the deposited data

How the results depend on the processing

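Under every alternative run, the unmoderated test, replicate block, scalings, filters and omission of each array included, 0 of the clustered protocadherins was called at an adjusted p under 0.05 early or late. For the mean of both effects and their difference the count was 0 too, in all of these but the fits to 1 timing, which give neither, and the background filter, not run for them. At an unadjusted p under 0.05 limma found 1 early and 0 late, beside 1.71% and 2.49% of all probe sets. The unmoderated test found 3 early (Pcdhb2, Pcdhb3 and Pcdhb11) and 3 late (Pcdhb1, Pcdhb7 and Pcdhb18). The share of all probe sets at this p was not taken for the alternatives, so their counts are not set against it. Over all alternatives there were 0 to 3 early and 0 to 3 late. Pcdhb3 came under 0.05 early with cyclic loess, in the fit to 4 arrays and without either late saline array. Late, Pcdhb15 did with cyclic loess, quantile normalization and probe sets of 1 symbol, Pcdhb7 with those 2 scalings and median centring, and Pcdhb1, Pcdhb13 and Pcdhb17 only with 1 array left out or, for Pcdhb1, in the unmoderated test. The count past the study's thresholds, 0 at both timings, became 1 higher after late exposure (Pcdhb15) with quantile normalization and 1 with cyclic loess. Without early saline replicate 1 the early difference of Pcdhb5 was -0.37. Without late saline replicate 1 the late differences of Pcdhb13 and Pcdhb15 were each 0.35.

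The difference of the alpha probe set lay between -0.089 and 0.020 after early and between -0.082 and 0.049 after late exposure without 1 array. Its sign turned without saline replicate 1 of the timing (0.020 early and 0.049 late). That array was the highest of its timing for this probe set (6.63 early and 6.97 late), and why it was high was not tested. The beta median lay between -0.05 and -0.02 after early and between -0.03 and 0.06 after late exposure without 1 array, and between -0.05 and -0.02 and between 0.02 and 0.05 in the other settings.

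The replicate numbers gave deviations that correlated at 0.47 between early groups and -0.46 between late groups, and the labels do not say that a number marks a shared litter or day. With the replicate block the counts past the study's thresholds were 0, the unadjusted p of Pcdhb11 was 0.047, and Pcdhb15 came under 0.05 late. A replicate block with late numbers crossed, added after the data were seen, also gave 0, with 2 at an unadjusted p under 0.05 early (Pcdhb3 and Pcdhb11) and 1 late (Pcdhb15). For the lists of related genes the counts past the study's thresholds were taken again only with 1 array left out, and some of them moved. The other alternatives were not run for these lists. The 8 members under background at both timings limit what these arrays can show of them.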
